A study of Saccharomyces cerevisiae with 72 samples.

Results

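Chromosome III of budding yeast (Saccharomyces cerevisiae) was described here bin by bin in a study of replication timing in 4 strains of the W303 background. The chromosome is known for carrying the mating-type locus MAT and the silent mating loci HML and HMR. Its members were all 1-kb bins that the deposited files place on chromosome III, which came to 288 bins listed in every one of 44 libraries, out of 11277 such bins in the genome. A single library listed between 289 and 293 bins of the chromosome, and the listed bins ran from base 1001 to base 315000 of the sacCer3 build.

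DNA replication starts at origins, called ARS elements in budding yeast, which are loaded with the replicative helicase in G1 and activated one after another through S phase by the kinases CDK and DDK. Chromosome III has long served as the model chromosome for this process. ARS305, ARS306 and ARS307 on the left arm, and ARS310 and ARS315 on the right arm, are known as active origins, centromeres of budding yeast are known to replicate early, and the silenced DNA of HML and HMR lies close to the ends. The origins beside HML are known to fire in few cell cycles, so that HML is usually copied by forks arriving from neighbouring DNA.

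The strain called D carried sld3-R(2A)-13myc, a mutant form of the origin-firing factor Sld3, and PPH3-AID, which lets auxin remove Pph3, the catalytic subunit of protein phosphatase 4. Strain C carried PPH3-AID with SLD3-13myc. Strain B carried sld3-R(2A)-13myc with untagged PPH3. Strain A carried SLD3-13myc with untagged PPH3 and is the strain against which the others were set. All 4 strains were MATa and shared swe1delta::TRP1, cse4delta::NatMX with leu2::CSE4-HA6::LEU2, CDC55-AID::KanMx and his3::PGPD1-osTir1::HIS3. Cdc55, a regulatory subunit of protein phosphatase 2A, therefore carried the degron in strain A as well, and the mitotic inhibitor kinase Swe1 was absent throughout. Per the labels, cultures were arrested in G1 with 5 ug/ml alpha factor, given 1 mM IAA (auxin) during a 30-minute shift to 37 °C, and released into fresh medium with IAA. Each strain was 1 culture, sampled once at each of 11 times: 15, 20, 25, 30, 35, 40, 45, 50, 60, 70 and 80 minutes.

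There were no replicate cultures, so no difference between strains has a replicate check and no p-value is given. The value in each bin is the deposited ratio of S-phase to G1 reads, scaled by the authors so that unreplicated DNA lies near 1 and replicated DNA near 2. The sequencing depth behind the ratios is unknown, so neighbouring bins served to show scatter. From the differences between neighbouring bins of chromosome III, the SD of a bin was 0.0420 to 0.0789 of the library median, depending on the library. Trep is the minute at which the 5-kb running mean of the ratio crossed 1.5, and it could be set for all 288 bins. The SD given with a Trep or ratio at a landmark is over its 5 nearest listed bins of the same library, which are not independent samples.

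Some bins that matter for the mating loci were not listed. Bases 4001 to 14000, which contain HMLALPHA1 and HMLALPHA2, and bases 199001 to 201000, which contain MATALPHA1 and MATALPHA2, were not listed in all 44 libraries. Bases 84001 to 93000 around LEU2, the locus named in the CSE4 construct of all 4 strains, were not either. The values for HML therefore come from bases 14001 to 19000 on its centromere side, which contain CHA1 (a serine and threonine deaminase), VAC17 (an adaptor for vacuole inheritance) and MRC1 (a replication fork and checkpoint protein). Those for MAT come from 5 bins between 197001 and 204000 on both sides of the gap, in PHO87, BUD5 and TAF2. HMR was listed, but its bins 293001 to 295000 hold HMRA1 and HMRA2, whose sequence MATa cells also carry at MAT, so that short reads cannot tell these copies apart.

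Chromosome III had the earliest median Trep of the 16 chromosomes in every strain. Its bins had a median Trep of 38.7 minutes in D, 32.0 in C, 35.7 in B and 28.5 in A. All bins of the genome had a median of 44.1 minutes in D, 36.3 in C, 39.3 in B and 32.8 in A. A measure that does not use the scale factor, the area under the ratio divided by its library median, gave the same rank. On it chromosome III exceeded the genome median by 3.98 in D, 2.78 in C, 3.04 in B and 2.28 in A. This area is in ratio times minutes, so the excess is not a lead in time. The left arm held the earliest stretch, as the plot of Trep along the chromosome shows.

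**Figure D1:**
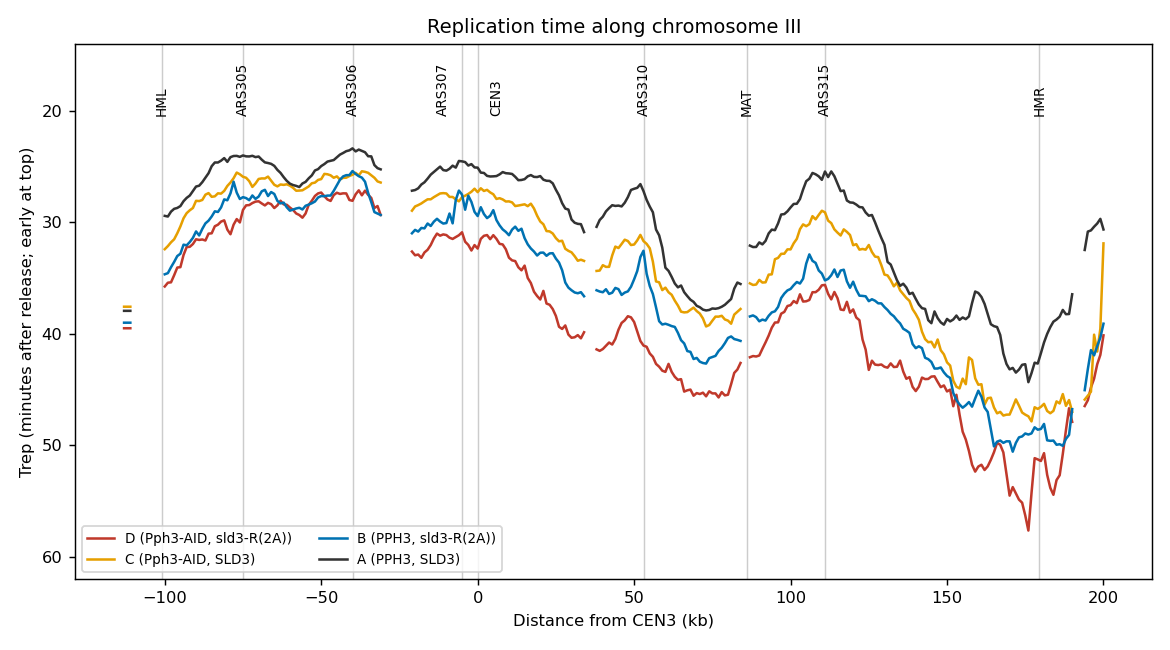
Trep (minutes after release, early at the top) is plotted against distance from CEN3 in kb for strains D, C, B and A, with grey lines at the landmarks and breaks where bins were not listed. Peaks point upward: the left arm and CEN3 form an early block in all strains, the line of D lies below that of A over the whole chromosome, and the latest bin of D (57.7 minutes) and of A (44.4 minutes) lies just to the centromere side of HMR.

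With 5-bin windows ARS306 was the earliest landmark in all 4 strains. Its bins, over FUS1 (a mating fusion protein), HBN1, FRM2 and the amino acid permease gene AGP1, had a Trep of 28.1 ± 0.68 minutes in D, 25.7 ± 0.47 in C, 25.4 ± 1.27 in B and 23.4 ± 0.52 in A (SD over 5 bins). At 30 minutes the ratio there was 1.59 ± 0.04 in D, 2.06 ± 0.12 in C, 1.64 ± 0.06 in B and 2.17 ± 0.08 in A. D and B, the strains with sld3-R(2A), thus lay together and well below C and A at that minute, by more than the scatter of the bins. The share of the genome that replicated before ARS306 was 0.515% in D, 0.782% in C, 0.231% in B and 0.107% in A.

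The delay of D and B at ARS306 was small beside that of the genome. D was later than A by 4.71 ± 0.71 minutes (SD over 5 bins), C by 2.37 ± 0.69 and B by 2.03 ± 1.14, where the genome medians were 11.1 minutes for D, 3.52 for C and 6.41 for B. Only 1.24% of genome bins had a smaller difference between B and A than ARS306.

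ARS305, in bins over LRE1, APA1, YCL049C and YCL048W-A, followed ARS306 in D, C and A, and came after ARS307 in B. Its Trep was 28.9 ± 1.41 minutes in D, 25.9 ± 1.14 in C, 27.7 ± 1.77 in B and 24.0 ± 0.88 in A. The gap between ARS305 and ARS306 was within the scatter of the bins in D (0.82 minutes, SD 1.56), C (0.18, SD 1.24) and A (0.63, SD 1.02), and was slightly larger than it in B (2.34, SD 2.18). In B the order of ARS305 and ARS307 was not resolved (0.23 minutes, SD 3.55). With a 3-kb window ARS305 was ahead of ARS306 in C, at 25.5 and 25.8 minutes. D was later than A at ARS305 by 4.89 ± 2.16 minutes, against 1.91 ± 1.11 for C and 3.74 ± 1.55 for B.

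ARS307 lies about 5 kb from the centromere, in bins over VMA9 (a V-ATPase subunit), PGS1, LDB16 and RER1. Its Trep was 30.9 ± 0.90 minutes in D, 27.7 ± 1.10 in C, 27.5 ± 3.07 in B and 24.5 ± 0.97 in A. CEN3, the point centromere of the chromosome, had a Trep of 32.4 ± 1.78 minutes in D, 27.3 ± 0.61 in C, 29.4 ± 2.56 in B and 25.1 ± 0.62 in A. The order of ARS307 and CEN3 was not resolved in any strain, since their gap was 1.46 minutes in D, 0.45 in C with CEN3 ahead, 1.93 in B and 0.56 in A, all within the scatter of the bins. At CEN3 the ratio at 30 minutes was 1.38 ± 0.06 in D, 1.77 ± 0.04 in C, 1.52 ± 0.11 in B and 1.90 ± 0.11 in A. D was later than A at CEN3 by 7.26 ± 2.32 minutes, more than at ARS306 and below the genome median of 11.1. With common scale factors, each minute scaled by a factor averaged over the strains, it was 4.78 minutes, slightly above the genome median of 4.46.

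ARS310, in bins over NPP1 (a nucleotide pyrophosphatase and phosphodiesterase) and RHB1 (a Rheb GTPase), had the largest delay in D of the 9 landmarks, as long as the bins HMR shares with MAT were kept. Its Trep was 41.1 ± 1.42 minutes in D, 31.7 ± 2.51 in C, 32.6 ± 3.36 in B and 27.2 ± 2.28 in A. At 35 minutes the ratio was 1.31 ± 0.08 in D, 1.71 ± 0.15 in C, 1.57 ± 0.09 in B and 1.90 ± 0.20 in A. At 40 minutes D was still at 1.45 ± 0.07, against 1.94 ± 0.16 in C, 1.93 ± 0.11 in B and 1.98 ± 0.14 in A. On the deposited scale D alone stood apart at that time. The genome median ratio also differed then, at 1.366 in D, 1.68 in C, 1.537 in B and 1.835 in A.

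D was later than A at ARS310 by 13.9 ± 1.29 minutes, whereas C was later by 4.48 ± 2.72 and B by 5.35 ± 1.94. The delay of D therefore exceeded the sum of those of C and B by 4.03 minutes, with an SD over bins of 4.54, so the excess was not larger than the scatter. This interaction was above that of 89.3% of genome bins. The share of the genome that replicated before ARS310 was 34.9% in D, 25.4% in C, 15.8% in B and 18.3% in A.

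ARS315, in bins over PWP2 (a ribosome assembly factor), YIH1, TAH1, TVS1 and the tRNA gene SUP61, split the strains differently. Its Trep was 35.6 ± 1.78 minutes in D, 29.1 ± 1.13 in C, 35.2 ± 0.90 in B and 25.4 ± 1.62 in A. At 35 minutes the ratio was 1.48 ± 0.07 in D, 1.82 ± 0.09 in C, 1.49 ± 0.04 in B and 1.92 ± 0.13 in A. D and B could not be told apart there, at a difference of 0.40 ± 1.93 minutes, and on the deposited scale both lay far from C and A.

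The delay of B at ARS315, 9.77 ± 1.89 minutes after A, was larger than at 93.4% of genome bins. C was later than A by 3.67 ± 2.03 minutes, and D by 10.2 ± 2.47. The interaction was -3.26 minutes (SD 2.64), below that of all but 3.74% of genome bins and opposite in sign to that of ARS310. On the area measure free of the scale factor, ARS315 exceeded the genome median by 4.60 in D, 3.71 in C, 3.22 in B and 3.52 in A. The excess of ARS310 was 2.32 in D, 3.80 in C, 6.73 in B and 3.81 in A, in ratio times minutes as well.

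The scale factors rise with bulk replication and differ between strains, so the size of every delay depends on them. Common factors bring the strains close to the same bulk ratio at each minute. A delay shared by the whole genome therefore shrinks by construction, and its smaller size on that scale is no check on it. With common factors the delay of D behind A at ARS310 was 7.45 minutes, against a genome median of 4.46, while that of C was 3.19 minutes and that of B only 0.23, below all but 6.79% of genome bins. At ARS306 it was 3.08 minutes for D and 0.87 for B, below genome medians of 4.46 and 2.65, and 2.13 for C, level with its genome median of 2.04. The Trep of ARS315 was then 31.9 minutes in D, 29.6 in C, 31.2 in B and 27.6 in A, so that the strains were spread out rather than split into pairs. The delay of B behind A there was 3.54 minutes, larger than at 70.3% of genome bins. The full time courses at the landmarks are plotted with the scatter of the bins.

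**Figure D2:**
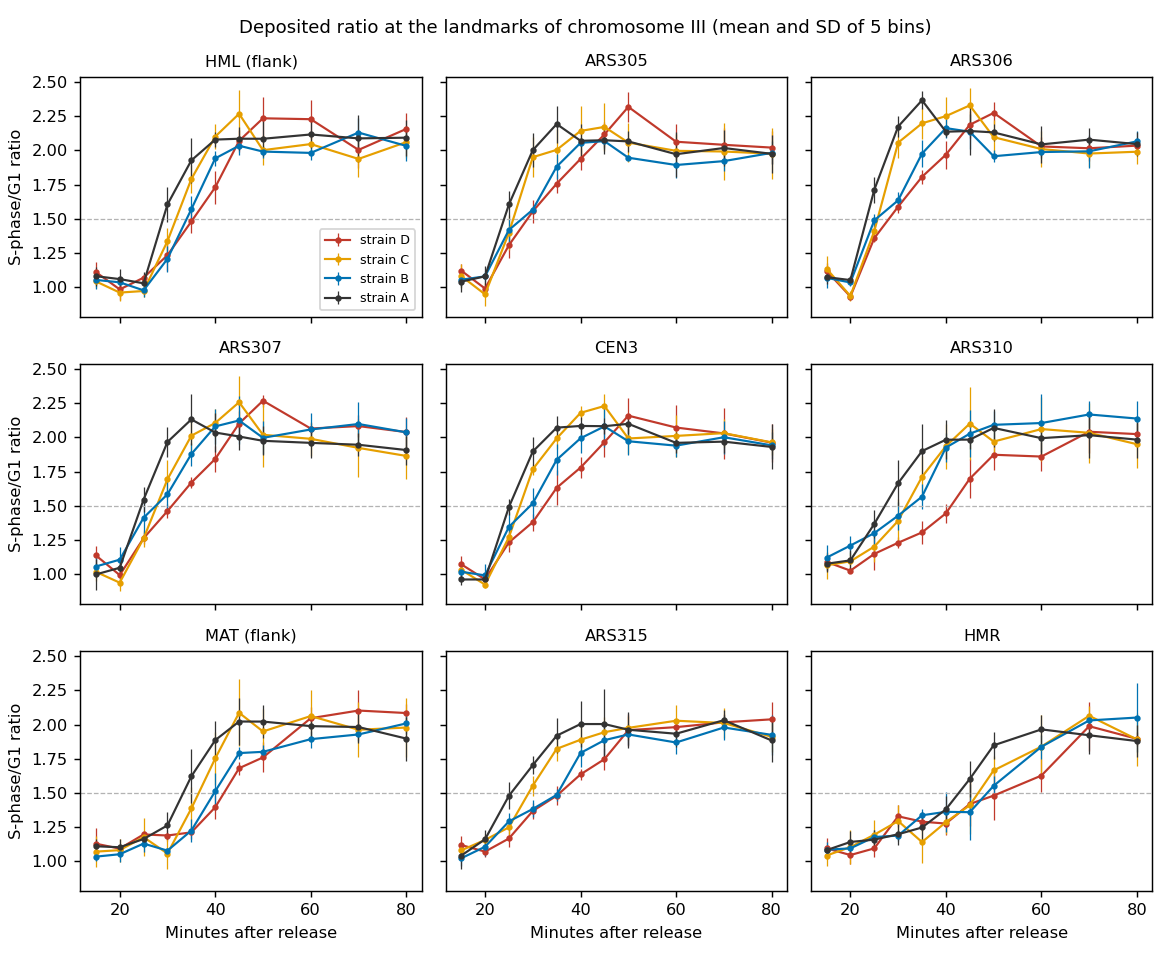
The deposited S-phase to G1 ratio (vertical axis) is plotted against minutes after release at each of the 9 landmarks for strains D, C, B and A, as the mean and SD of 5 bins, with a dashed line at the threshold of 1.5. On this scale D and B separate from C and A at ARS306 by 30 minutes, and D lags alone at ARS310 at 40 minutes. At ARS315 D and B run together, and at HMR all 4 strains are still below 1.5 at 40 minutes.

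The DNA next to HML replicated before most of the genome, although after the origins of its arm. The share of the genome that replicated before it was 15.0% in D, 26.0% in C, 21.5% in B and 30.0% in A. Its Trep was 35.4 ± 1.99 minutes in D, 31.8 ± 0.95 in C, 34.0 ± 1.26 in B and 29.0 ± 0.96 in A. At 35 minutes the ratio was 1.48 ± 0.08 in D, 1.79 ± 0.10 in C, 1.57 ± 0.10 in B and 1.93 ± 0.16 in A. D was later than A by 6.35 ± 1.93 minutes, C by 2.75 ± 0.96 and B by 4.99 ± 0.95, each below the genome median of its comparison. With common scale factors the delay of D behind A was 2.82 minutes.

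Trep was later on the HML side than at ARS305, 23 kb away, with level stretches and small dips between them. A line fitted over that stretch had a slope of 0.220 minutes per kb in D, 0.241 in C, 0.303 in B and 0.249 in A, and the HML bins followed ARS305 by 6.50 minutes in D, 5.88 in C, 6.29 in B and 5.04 in A. From ARS315 toward the other silent locus, HMR, over 68 kb, the fitted slope was 0.276 minutes per kb in D, 0.300 in C, 0.261 in B and 0.258 in A.

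HMR was the latest landmark in all 4 strains. Its Trep was 51.3 ± 7.35 minutes in D, 46.8 ± 3.22 in C, 48.6 ± 5.81 in B and 42.7 ± 2.56 in A. At 50 minutes the ratio was 1.48 ± 0.18 in D, 1.67 ± 0.10 in C, 1.55 ± 0.08 in B and 1.85 ± 0.10 in A. HMR followed HML by 15.9 minutes in D, 15.0 in C, 14.6 in B and 13.6 in A, which is more than the scatter of the bins in each strain. The share of the genome that replicated before HMR was 77.4% in D, 90.8% in C, 93.7% in B and 94.8% in A. These shares include the bins that hold sequence shared with MAT, which were early in D, and were not computed without them.

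In D, C and B the wide scatter at HMR came from the bins that hold HMRA1 and HMRA2. In A, where the scatter was smaller, the first of them was level with the bin at 295001 to 296000, at 42.1 and 42.2 minutes. Taken as single bins, base 293001 to 294000 crossed 1.5 at 44.4 minutes in D, 44.3 in C, 41.4 in B and 42.1 in A, and base 294001 to 295000 at 43.6 minutes in D, 41.2 in C, 38.1 in B and 39.1 in A. The other 3 bins of the window lay between 53.2 and 60.7 minutes in D, where MAT crossed at 41.8 minutes. Whether reads shared with MAT moved these bins was not tested. With both bins left out and the nearest others used, a choice made after the values were seen, the Trep of HMR was 56.8 minutes in D, 47.8 in C, 49.7 in B and 42.5 in A.

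The delay of HMR in D depended on those bins and on the scaling. D was later than A by 8.60 ± 6.38 minutes over the 5 bins and by 14.3 minutes without the shared ones. With common scale factors the difference between D and A was -3.20 minutes over the 5 bins, which reverses it, and 7.37 minutes without the shared bins. C was later than A at HMR by 4.07 ± 2.53 minutes and B by 5.93 ± 4.03.

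MAT, the expressed mating locus, lies between ARS310 and ARS315 and was read from its flanks. Its Trep was 41.8 ± 1.38 minutes in D, 36.5 ± 2.23 in C, 39.8 ± 1.59 in B and 33.3 ± 2.30 in A. At 45 minutes the ratio was 1.68 ± 0.05 in D, 2.09 ± 0.25 in C, 1.79 ± 0.04 in B and 2.02 ± 0.17 in A. D was later than A by 8.52 ± 2.87 minutes, C by 3.25 ± 1.46 and B by 6.47 ± 1.58. MAT replicated close to the middle of the genome in C, B and A, with 51.1%, 52.4% and 52.9% of bins ahead of it. In D it was somewhat before the middle, with 38.7% ahead. With common scale factors the share ahead was 47.4% in D, 49.4% in C, 53.0% in B and 48.8% in A. The difference of D from A was then 2.36 minutes and that of D from B was -0.57 minutes.

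ARS310 and MAT were nearly level in D. MAT followed ARS310 by 0.75 minutes in D (SD 1.98), against 4.85 in C, 7.21 in B and 6.09 in A. Some of the DNA between them was later than both in every strain, with a latest Trep of 45.7 minutes in D, 39.4 in C, 42.7 in B and 37.9 in A. On the other side MAT followed ARS315 by 6.20 minutes in D, 7.43 in C, 4.55 in B and 7.85 in A.

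**Figure D3:**
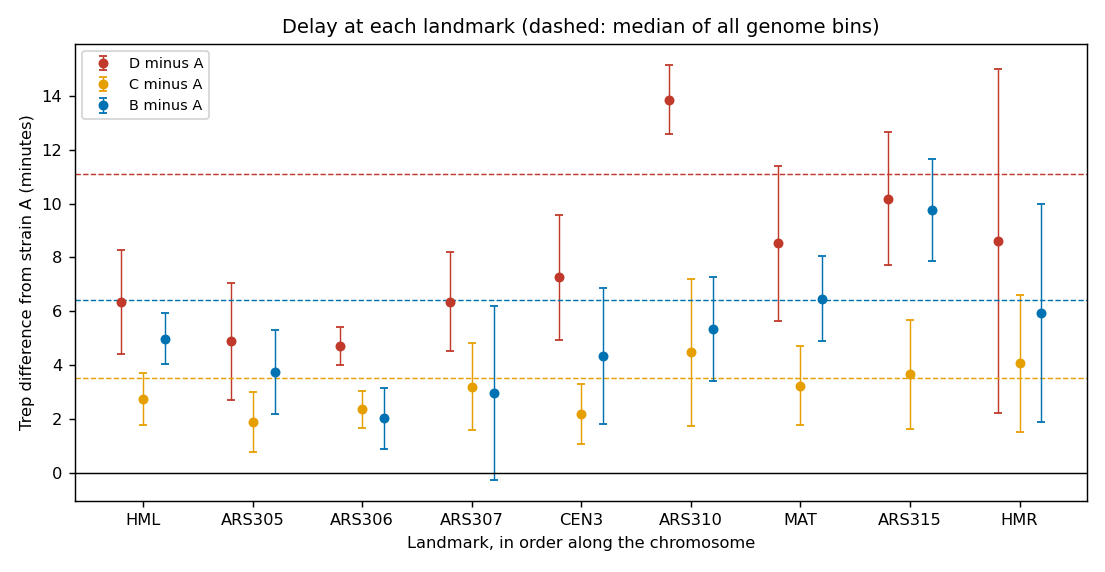
The Trep difference from strain A in minutes is plotted at each landmark, in order along the chromosome, for D, C and B, with the SD over 5 bins as bars and the genome medians (11.1, 3.52 and 6.41 minutes) as dashed lines in the same colours. For D, ARS310 at 13.9 minutes is above its genome median with these windows, as is HMR without the bins shared with MAT (14.3 minutes, not drawn), and for B ARS315 at 9.77 minutes and MAT at 6.47 minutes are above theirs, while C is above at ARS310, ARS315 and HMR.

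Over the whole chromosome, all 288 bins replicated later in D than in A. The median delay of D behind A was 8.28 minutes, that of C behind A 2.64 and that of B behind A 5.05. D followed C by 5.19 minutes and B by 2.49 minutes. The spread of such medians over the 16 chromosomes was an SD of 2.12 minutes for D against A, 0.73 for C against A, 0.69 for B against A, 1.36 for D against C and 1.47 for D against B. The comparisons of D, C and B with A share the libraries of A. Each of the 5 medians was below that of the genome, and chromosome III ranked 2 or 3 of 16, counted from the smallest delay, in each of them. With common scale factors the medians were 2.92 minutes for D against A, 1.63 for C and 2.07 for B, with ranks of 2, 6 and 1, and 253 of the 288 bins were later in D than in A.

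On the deposited scale the left arm was delayed least. From the left end to CEN3 (94 bins) the median Trep was 29.9 minutes in D, 27.0 in C, 28.6 in B and 25.1 in A, and the median delay of D behind A was 4.53 minutes. From CEN3 to MAT (81 bins) it was 40.4 minutes in D, 32.6 in C, 36.1 in B and 28.7 in A, with a delay of D of 9.12 minutes. From MAT to the right end (112 bins) it was 43.9 minutes in D, 39.2 in C, 41.1 in B and 35.4 in A, with a delay of D of 10.2 minutes. This order was not kept with common scale factors, where the delay of D was 2.54 minutes on the left arm, 4.67 from CEN3 to MAT and 2.36 from MAT to the right end.

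A bin was counted as less delayed, or more delayed, where its Trep difference was over 5 minutes below, or above, the genome median of that comparison. For D against A, 88 of 288 bins (30.6%) were less delayed, against a background of 12.5% over the genome, and 76 of the 88 were on the left arm. The longest unbroken run went from base 37001 to 84000, 47 bins that span ARS305 and ARS306. Only 1 bin (0.347%) was more delayed, at 273001 to 274000, against a background of 17.8%. None of the 288 was later than A by over 20 minutes, a difference reached by 4.09% of the genome.

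For D against C, 55 bins (19.1%) were less delayed, against a background of 3.37%, and none was more delayed, against 6.15%. The 55 comprised 42 on the left arm and 13 between MAT and the right end. For D against B, 4 bins (1.39%) were less delayed, near the background of 1.69%, and none was more delayed, against 10.4%. For C against A, 9 bins (3.13%) were more delayed, against 5.46%, and none was less delayed, against 0.0355%. For B against A, 5 bins (1.74%) were more delayed, against 1.55%, and 3 bins (1.04%), all at the left tip, were less delayed, against 0.417%. With common scale factors 27 bins (9.375%) were less delayed in D against A, near the 7.35% of the genome, and only 3 of these were on the left arm, against 24 between MAT and the right end. The genome median of D against A was then 4.46 minutes, so a less delayed bin had to be earlier in D than in A. That is a different question, so this count cannot decide whether the excess on the left arm depends on the scaling.

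The distance between the earliest and latest DNA was greater in D than in A. From the 5th to the 95th percentile of bins, Trep spanned 24.5 minutes in D, 20.7 in C, 22.2 in B and 16.0 in A. The earliest bin lay at 76001 to 77000 in D (27.1 minutes), at 77001 to 78000 in C (25.4 minutes) and at 74001 to 75000 in B (25.4 minutes) and in A (23.4 minutes), all next to ARS306. The latest bin lay within 8 kb of HMR in every strain, at 57.7 minutes in D, 47.9 in C, 50.6 in B and 44.4 in A. The spans of the other 15 chromosomes ran from 16.9 to 29.5 minutes in D and from 13.5 to 20.1 in A. With common scale factors the span was 19.0 minutes in D and 19.3 in A, so the widening was not seen on that scale.

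The contrast between the arms ran its course at different times. The left arm divided by the stretch from MAT to the right end reached its highest ratio at 40 minutes in D (1.38), at 35 minutes in C (1.44) and B (1.41) and at 30 minutes in A (1.46). This quotient does not depend on the scale factor. At 20 minutes it was below 1 in all 4 strains, at 0.869 in D, 0.794 in C, 0.897 in B and 0.824 in A, so that the DNA which replicated first had fewer reads relative to G1 than the right part of the chromosome just before it was copied.

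**Figure D4:**
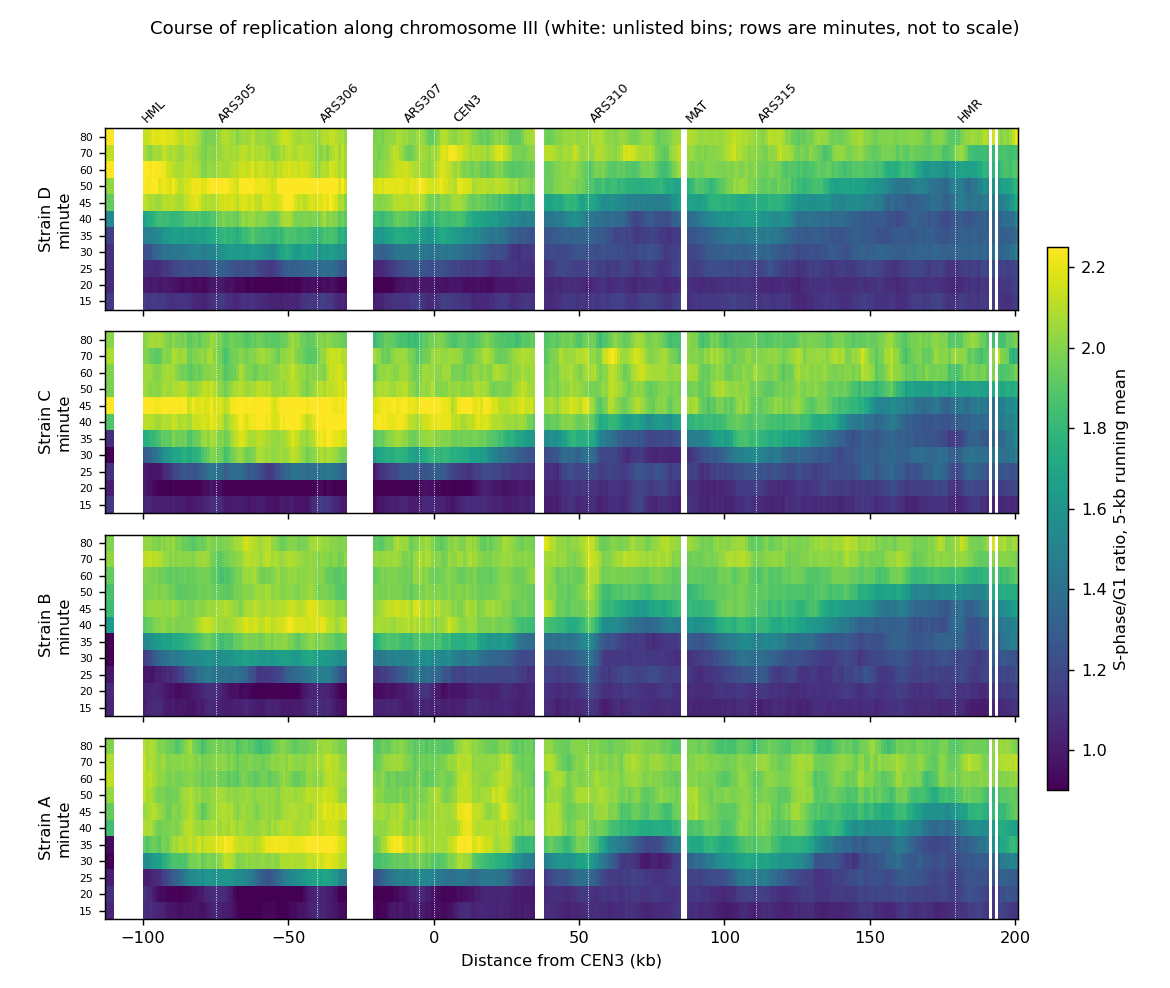
The 5-kb running mean of the S-phase to G1 ratio (colour) is shown by distance from CEN3 in kb (horizontal) and minute after release (vertical) in strains D, C, B and A, from top to bottom. The bright left arm fills first in each strain, the 20-minute rows are darkest on the left arm, and the right arm of D is the last to brighten.

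The left tip, 3 bins from base 1001 to 4000 beyond the unlisted HML stretch, hardly differed between strains. Its Trep was 39.5 minutes in D, 37.6 in C, 39.0 in B and 38.0 in A, late for the left arm. D was later than A there by 1.56 minutes, less than at all but 0.178% of genome bins, and C was earlier than A by a difference of -0.37 minutes. The difference of D from A was -1.46 minutes with common scale factors. At this tip the 5-kb mean rests on the same 3 bins at each position, so it is 1 measurement per library.

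At the right end A stood apart on the deposited scale. In the last 10 kb (8 bins) the median Trep was 44.4 minutes in D, 43.4 in C, 41.7 in B and 30.7 in A. C was later than A by a median of 12.2 minutes there, beside 2.64 minutes over the chromosome, and by 11.8 minutes with common scale factors. On the deposited scale this difference ran from 1.25 to 14.7 minutes over the 8 bins. The median ratio of C there was 1.42 at 30 minutes, 1.36 at 35, 1.45 at 40 and 1.49 at 45. With so flat a course near the threshold of 1.5, small ratio differences move the Trep of C by many minutes. The delay of D there was 13.4 minutes and that of B 10.9, against 3.06 and 1.01 with common factors, so that on that scale C stood apart. In all, 8 of the 9 bins more delayed in C than the genome lie between base 304001 and 314000. The median ratio of the last 10 kb at 45 minutes was 1.53 in D, 1.49 in C, 1.57 in B and 1.80 in A, highest in A on the deposited scale. Divided by the genome median of the library, which removes the scale factor, it was 0.996 in D, 0.795 in C, 0.896 in B and 0.939 in A. On that measure D was highest and C lowest. Which of these bins hold sequence shared with other chromosome ends was not tested.

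Local early peaks of the Trep profile numbered 5 in D, 5 in C, 5 in B and 6 in A. Those near ARS306, ARS310 and ARS315 were found in all 4 strains, at distances from the landmark of 0 to 5 kb. A peak within 3 kb of ARS305 was found in C, B and A, and in D the nearest peak was at 51001 to 52000, 12 kb away. The peak at ARS307 was present in D, B and A, and in C the nearest one was at CEN3. In D the peak by ARS310 stood at 162001 to 163000, 5 kb toward the centromere, with a Trep of 38.4 minutes.

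The sixth peak of A had no counterpart among the called peaks of D, C or B and no landmark within 10 kb. It stood at 273001 to 274000 with a Trep of 36.2 minutes and was 2.98 minutes earlier than its surroundings. This was also the bin of the chromosome with the largest delay of D behind A, 16.2 minutes (8.34 with common scale factors), with a Trep of 52.4 minutes in D. C and B were later than A there by 7.79 and 9.59 minutes. Both had a dip nearby that the peak rule did not call. In C, Trep was 42.1 minutes at 157 kb from CEN3, against 44.9 at 154 kb and 44.6 at 160 kb. In B it was 45.1 minutes at 160 kb, against 46.6 at 155 kb and at 162 kb. The next largest delays of D, at least 20 kb apart, were 15.5 minutes at 298001 to 299000, in GIT1 (a glycerophosphoinositol permease), and 14.1 minutes at 166001 to 167000, in NPP1 at ARS310.

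The smallest delays of D behind A lay on the left arm. Besides the left tip, these were 2.14 minutes at 54001 to 55000, in GID7 (a subunit of a ubiquitin ligase) and ATG22 (a vacuolar transporter), and 3.40 minutes at 82001 to 83000, in KCC4 (a septin-associated kinase). At 54001 to 55000 the Trep was 28.7 minutes in D, 26.7 in C, 29.0 in B and 26.5 in A, so that D and B lay together and C and A lay together. At 82001 to 83000 it was 28.5 minutes in D, 26.3 in C, 29.2 in B and 25.1 in A.

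On the deposited scale early DNA was delayed less than late DNA in the whole genome. Chromosome III was therefore also set beside the other 15 chromosomes within 10 equal classes of bins. The bins were sorted by the mean Trep of the strains outside the comparison, a step chosen after the values were seen. The classes were not run with common scale factors. For D against A, 41.0% of the bins of chromosome III fell in the earliest 2 classes. In the earliest class D was later than A by a median of 5.15 minutes on chromosome III (95 bins) and 6.69 minutes on the other chromosomes. In class 2 it was later by 9.98 and 8.82 minutes, in class 6 by 8.13 and 11.7 minutes, and in the latest class by 11.3 (27 bins) and 15.2 minutes. Weighted over the classes, the delay of D was 8.48 minutes on chromosome III and 10.2 minutes on the others. Such weighted values were not computed for other single chromosomes, so this gap has no measure of spread beside it. For C the weighted values were 2.95 and 3.15 minutes, and for B 5.61 and 5.78 minutes.

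Among the 16 chromosomes, VI and I had median delays of D behind A below that of chromosome III, at 7.48 and 8.16 minutes, while their median Trep in A was later, at 33.9 and 32.9 minutes. Chromosome V, with the next earliest median Trep in A, 29.2 minutes, had a delay of D of 8.68 minutes. Chromosome IV had the longest delay, 14.5 minutes.

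**Figure D5:**
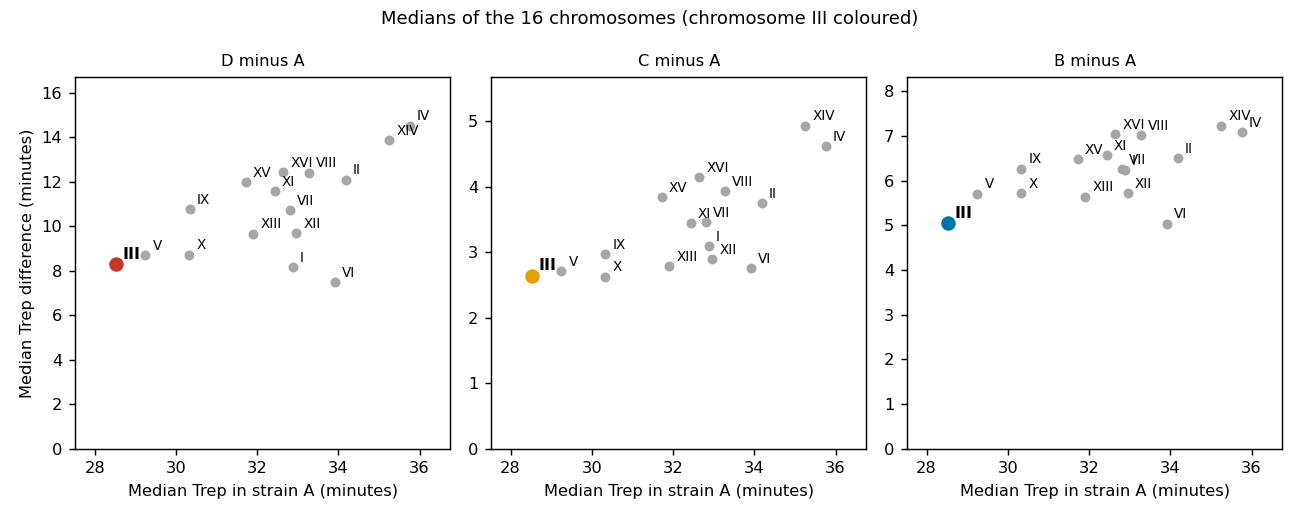
The median Trep difference of D, C and B from strain A (vertical, minutes) is plotted against the median Trep in A (horizontal, minutes) for the 16 chromosomes, with chromosome III coloured. Chromosome III lies at the far left of each panel, at 28.5 minutes, and near the bottom, at 8.28 minutes for D, 2.64 for C and 5.05 for B. Both axes use the values of A.

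The shape of the profile was largely kept. Over the 288 bins of chromosome III, Pearson's r between the Trep of 2 strains was 0.955 for D and C, 0.974 for D and B, 0.916 for D and A, 0.980 for C and B, 0.942 for C and A and 0.944 for B and A, as a description over neighbouring bins that share libraries. Over the genome the value for D and A was 0.832.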

How the data were processed

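Of the 72 samples of the series, 44 replication libraries were used, and 4 G1 libraries enter only through the deposited ratios, which were divided by them. The other 24 samples are ChIP libraries, not analysed here. The authors deposited, for each library, a ratio of S-phase to G1 reads per 1-kb bin and the factor that scales it (1.04 to 2.00), per the file headers. The deposited tables give no counts, so depth is unknown and no counting interval can be given. Per the submitters' processing notes, the build was sacCer3 and the tools included Bowtie2 2.2.6, SAMtools 1.7.2 and bedtools 2.26.0, with no roles stated.

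From these, a 5-kb running mean (at least 3 listed bins) was made monotone in time, and Trep is its interpolated crossing of 1.5 (Python 3.11.15, numpy 2.4.6, pandas 2.3.3). It could be set for 11260 bins. The procedure was run on simulated profiles built from the smoothed Trep of A, with 1 curve shape and independent bin noise. These held no errors in the scale factors and no flat courses, so they say nothing about either. Differences between strains were taken per bin, and the interaction is the difference of D from B minus that of C from A. A landmark is its 5 nearest listed bins, and landmark positions follow the S288C reference in kb. Gene names are from the RefSeq table of the same assembly. Peaks were local Trep minima over 10 kb on each side with a prominence of 1 minute or more, shared within 5 kb. Named are the 9 landmarks, each peak, and the 3 largest and 3 smallest differences of D from A, at least 20 kb apart. The chromosome, landmarks and rules were chosen with earlier results of these data known. The 1-culture design allows no test. No genome sequence was used here.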

Additional observations from a re-analysis of the deposited data

Results flagged for a closer look

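At 4 of 31 named loci and bins of chromosome III the effect of Pph3 depletion on Trep had opposite signs in the 2 Sld3 backgrounds, D against B and C against A. With 1 culture per strain the difference was not tested. Over all bins, 5.90% on chromosome III and 3.38% in the genome had opposite signs. The differences are small beside the SD over bins at the landmarks, 1.58 to 3.55 minutes for D against B and 0.69 to 2.72 for C against A. At the left tip, from base 1001, D was later than B by 0.50 minutes and C was earlier than A, at -0.37 minutes. At the peak of D from base 51001, the difference of D from B was -0.24 minutes and that of C from A was 1.04 minutes. From base 54001, in GID7 and ATG22, it was -0.28 minutes for D against B and 0.18 minutes for C against A. From base 82001, in KCC4, it was -0.67 minutes for D against B and 1.19 minutes for C against A. All 4 bins lie on the left arm, where the median of D against B was 1.09 minutes and that of C against A was 1.74 minutes, and 3 of the 4 were named for a small delay of D.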

How the results depend on the processing

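Without replicate cultures the alternatives show how far values move, not how far cultures would. No paired analysis was possible because each strain was 1 culture, with 1 library at each minute, so the labels number no replicates. Of 510 landmark differences from A recomputed under the alternatives, 509 kept D, C or B later than A, and the exception was HMR in D with common scale factors, at -3.20 minutes.

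Common scale factors shrank the median delays of the chromosome behind A to 2.92 minutes for D, 1.63 for C and 2.07 for B. The median of D against B became 0.99 minutes and that of D against C 1.61. Such factors remove most of the difference in bulk replication between strains, so this shrinkage is built in. The span was then 19.0 minutes in D and 19.3 in A, and for D against A 27 bins were less delayed and 0 more delayed, with 0 in both directions for B against A. With each bin's own midpoint as threshold, D against B was 4.01 minutes, D against C 6.67, and the less delayed bins of D against A numbered 49. The median interaction, -0.43 minutes, reversed to 0.17 with a threshold of 1.6, to 0.82 with the midpoint and to 0.0300 with the mean profile of 15, 70 and 80 minutes as denominator. The span in A was 18.2 minutes at 1.6, and that in B was 19.2 minutes without the 30 kb at each end. On the area measure free of the scale factor, the excess of chromosome III in A was 4.14 with the 15-minute library as denominator. The other medians, spans and area excesses stayed within their spread under the alternatives run. Peak counts have no such spread, and a limited change in them was treated as no change.

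Small counts moved most. More delayed bins of D against A, 1 as reported, numbered 12 in single bins, 4 at a threshold of 1.4, and 0 at 1.6, with a 9-kb running mean, with the mean profile or without the ends. More delayed bins of B against A, 5 as reported, numbered 11 in single bins, 3 at 1.4, 11 at 1.6, 2 with the midpoint, and 0 with the 9-kb mean, the mean profile or without the ends. Less delayed bins of B against A, 3 as reported, numbered 14 in single bins, 6 at 1.4 and 0 with the 9-kb mean or without the ends. For C against A, more delayed bins, 9 as reported, numbered 4 with the midpoint, 5 with the mean profile and 1 without the ends. Less delayed ones, 0 as reported, numbered 3 in single bins and 1 with the mean profile.

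Leaving out a minute moved the more delayed bins of D against A to 0 without 25 or 50 minutes, 2 without 30, 3 without 35 and 5 without 60. It moved those of B against A to 9 without 35, 3 without 45 and 8 without 50, and the less delayed ones to 5 without 30 and 0 without 35. For D against A the median then ran from 7.69 to 8.58 minutes and the less delayed bins from 77 to 95.

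At HMR the delay of D behind A was 2.33 minutes with a 3-kb window and 11.7 with a 7-kb window. HML and HMR have no value with the ends left out. The cause of these changes was not tested.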
